A study of Equus caballus with 10 samples.

Results

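The interferon-stimulated antiviral effectors are a set of 44 listed genes whose products sense viral RNA or block viral entry, transcription, translation and release. Members were taken as the rows of the expression table that carry a listed gene name. In all, 41 of the 44 genes were found among 29196 genes, and all 41 passed the filter on low values, beside 17992 genes in all. IFIT1, IFIT2 and SP100 were not analysed here. The data are messenger RNA profiles of primary tenocytes, the collagen-producing cells of tendon, isolated from the superficial digital flexor tendon of horses and cultured for 14 days in 3D collagen gels. The 5 cell lines 090811, 130911, 180412, 250718B and CD each came from a different horse and are called donors 1 to 5, in that order. One group of 5 libraries received 100 nM PF-06650833 daily, an inhibitor of IRAK4, the kinase that relays signals from the interleukin-1 receptor. The other group of 5 libraries, from the same lines, received the same inhibitor together with 17 ng/ml IL-1β at each medium change, so every library of both groups carries the inhibitor. Untreated libraries and libraries with IL-1β alone were not analysed here, so the effect of IL-1β is measured only in the presence of the inhibitor. Cells were passaged before use, and the ages of these 5 horses are not given in the sources used here.

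Interferons are secreted proteins that warn neighbouring cells of infection. Type I and type III interferons act through their receptors on the kinases JAK1 and TYK2, which activate STAT proteins that enter the nucleus, for type I and type III interferon together with IRF9. These factors switch on a large set of effector genes, and NF-κB and the IRF proteins can switch on some of the same genes without interferon. In connective tissue cells many of the effectors increase after viral infection, exposure to interferon or inflammatory stimulation, and their levels at rest differ from gene to gene.

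Expression is given throughout on the deposited log2 scale, which is variance-stabilized and normalized between libraries. Its lowest value, 3.43, stands for no reads, so that differences of low genes are compressed. Normalized counts are linear values recovered from this scale. The libraries held 31200000 to 41400000 read pairs. A gene is called differentially expressed where limma gave a Benjamini-Hochberg adjusted p below 0.05 over all tested genes and a log2 fold change of at least 1 in either direction. Every fold change is IL-1β plus PF-06650833 minus PF-06650833 alone, and "with IL-1β" always means with both agents.

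The libraries were checked against markers before the effectors were read. Of 10 tenocyte markers in the table, TNMD, a late tendon marker, was at the lowest value in all 10 libraries. SCX and MKX, transcription factors of the tendon lineage, were present in all libraries, at 10.23 to 12.18 and 10.97 to 12.64 without IL-1β. With IL-1β they were at 6.88 to 8.51 and 7.58 to 10.51, and together with the matrix protein COMP, at −3.63, they were the 3 of 9 tested tenocyte markers that fell, against 5 with the line as a block. Of the other 6, 2 matrix proteoglycans had fold changes above 0, DCN at 1.01 with an adjusted p of 0.268 and LUM at 0.33 with 0.693. The 10 markers summed to 951953 to 1528210 normalized counts without and 297851 to 1269310 with IL-1β. Of 12 leukocyte and macrophage markers, CD3E, MS4A1 and ADGRE1 were at the lowest value in all libraries and PTPRC, the pan-leukocyte marker, was above it in 1 library only, that of donor 4 without IL-1β, at 4.20. The summed normalized counts of these 12 markers were 81.9 to 1792 without and 207 to 1997 with IL-1β, and CD14, with up to 1662 and 1682 normalized counts, carried most of the highest sums. CD14, a coreceptor for bacterial lipopolysaccharide, was 10.72, 8.37, 3.43, 3.43 and 3.43 in donors 1 to 5 without and 10.73, 9.50, 3.43, 8.75 and 10.27 with IL-1β. It was high in donor 1 in both groups, at the lowest value in donor 3, and higher with IL-1β by 5.32 and 6.84 in donors 4 and 5, with an adjusted p of 0.34 over all donors. CD68, a lysosomal protein of macrophages that other cells also make, rose by a log2 fold change of 1.70. The 6 endothelial markers summed to 16.3 to 50.4 without and 5.12 to 30.7 with IL-1β. The 5 epithelial markers summed to 617 to 2584 and 45.4 to 444, with EPCAM at the lowest value in all libraries and CDH1 and KRT19 had log2 fold changes of −2.22 and −4.56. Whether these marker levels have a part in the changes of the effectors was not tested. In bulk RNA, fewer cells of a type and less RNA per cell cannot be told apart.

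The library of donor 4 with IL-1β stood apart from the others in these genes. It had the highest value of its group in 38 of the 41 effectors, against 24.3% of all tested genes. In the group without IL-1β the library of donor 4 was highest in 5 of the 41, against 21.5% of all tested genes. For that reason the counts of differentially expressed genes are also given without donor 4.

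Of the 41 effectors, 8 (19.5%) were differentially expressed and all 8 rose with IL-1β, where 3.11% of all tested genes rose and 6.68% changed in either direction. These were RSAD2, LGALS3BP, BST2, UBE2L6, IFI44, DDX58, ISG15 and IFI35, with log2 fold changes between 1.11 and 3.07. They include an enzyme that makes an antiviral nucleotide, a surface tether of virus particles, an RNA sensor, the ubiquitin-like modifier ISG15 and its conjugating enzyme. At an adjusted p below 0.05 with no minimum fold change the same 8 effectors rose, against a background of 7.57%, and 1 effector, SAMHD1, fell, against 7.89% of all genes. The fold change was above 0 in 38 of the 41 effectors and their median was 0.72, where the median of all tested genes was −0.01.

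Both groups came from the same 5 lines, and a fit with the line as a block called 12 effectors (29.3%), all higher, against 4.01% of all genes. The 4 added genes were IFIT3, DDX60, XAF1 and DHX58. At an adjusted p alone the fit with the block had 13 effectors higher, against 10.9% of all genes, the added one being IFI6. Counted without any model, 10 effectors (24.4%) had all 5 libraries with IL-1β above all 5 libraries without, against 6.29% of all genes, and none (0) had them all below, against 6.41%. Within donors, 20 effectors were higher with IL-1β in all 5 pairs, which 16% of all genes were.

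Without both libraries of donor 4, 5 effectors were differentially expressed (RSAD2, LGALS3BP, BST2, UBE2L6 and DDX58), or 11 with the line as a block, and the median fold change of the 41 was 0.39. Without only its library with IL-1β the numbers were 7 effectors and 0.36. At an adjusted p alone, 6 effectors passed without donor 4. No number over all genes was taken for this count, so it cannot be set against a background. Leaving out donor 1 or donor 2 left 3 effectors each, and leaving out donors 3 and 5 left 6 and 5. Over all 17992 tested genes the fits without donors 1 to 5 called 762, 790, 1330, 1232 and 777 genes, against 1202 with all donors. Of these, 356, 395, 556, 579 and 388 rose, against 560 with all donors. With the line as a block and without donor 4, 1578 genes were called and 777 rose. Without only the library of donor 4 with IL-1β, 1422 were called and 647 rose.

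**Figure D1:**
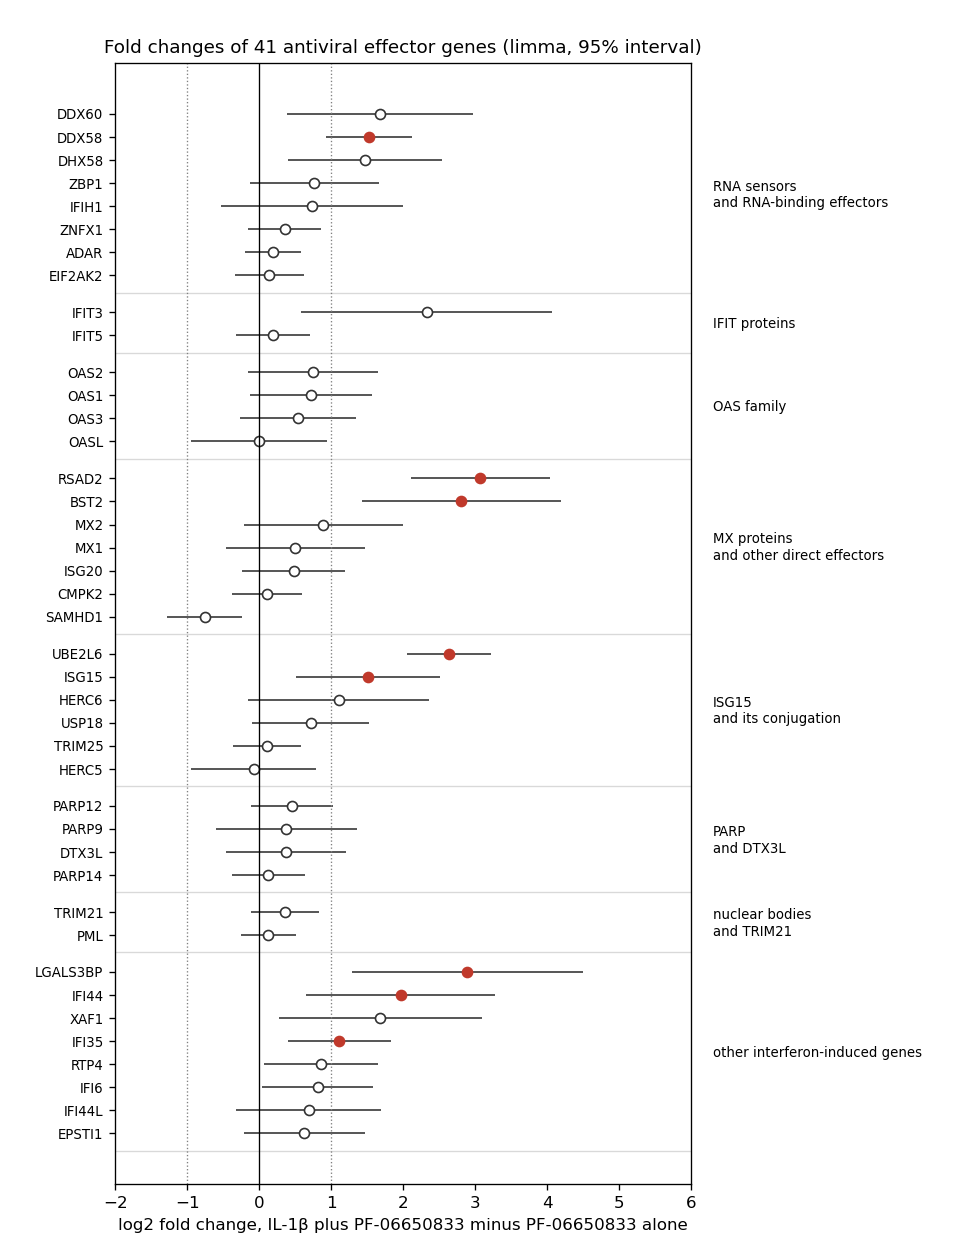
Log2 fold change (x axis, IL-1β plus PF-06650833 minus PF-06650833 alone) of the 41 effectors, ordered by role and size, with the 95% confidence interval of the limma fit (n = 5 libraries per group). Filled red points are the 8 differentially expressed genes, open points the others, and dotted lines mark −1 and 1; 38 points lie above 0 and SAMHD1 at −0.76 is the lowest.

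Among the 8 RNA sensors and RNA-binding effectors, DDX58 alone was differentially expressed. DDX58 encodes RIG-I, which detects viral RNA in the cytoplasm and signals through MAVS. Its expression in donors 1 to 5 was 10.56, 9.90, 10.02, 9.93 and 9.93 without IL-1β and 11.93, 11.44, 11.01, 12.51 and 11.09 with it. All libraries with IL-1β were above all libraries without, and the lowest of the former exceeded the highest of the latter by 0.45. This gave a log2 fold change of 1.53 ± 0.27 (SE, n = 5 per group), with an adjusted p of 0.00382 by limma. Leave-out fits dropped each of the 10 libraries and each of the 5 donors in turn, 15 in all, and DDX58 kept its call in every one, with fold changes between 1.26 and 1.67. None of these leave-out fits used the line as a block.

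The other helicases of the sensor group had larger spreads. DDX60, a helicase that assists RIG-I, was 6.32, 6.75, 5.32, 6.12 and 6.94 without and 7.39, 8.16, 6.96, 10.23 and 7.10 with IL-1β. The groups did not overlap, but the gap between them was 0.022, and donor 4 stood 2.07 above the next library. DDX60 had a fold change of 1.68 ± 0.58, with an adjusted p of 0.0755, or 0.0455 with the line as a block. DHX58, which encodes LGP2, a regulator of the other RIG-I-like sensors, had a log2 fold change of 1.47 ± 0.48 and an adjusted p of 0.0616, or 0.028 with the block. It passed without the block when the library of donor 2 without IL-1β was left out, at an adjusted p of 0.0458.

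The third RIG-I-like sensor, IFIH1 or MDA5, differed between donors. Its differences with IL-1β were −0.02, −0.05, 1.37, 2.66 and −0.28 in donors 1 to 5, so only donors 3 and 4 had a clear increase. In donor 3 this started from a low value without IL-1β, 4.41. The fit gave 0.73 ± 0.57 with an adjusted p of 0.435. The remaining sensors did not pass the test in either fit: ZBP1, a sensor of left-handed nucleic acid, at 0.77, ZNFX1 at 0.35, ADAR, which edits double-stranded RNA, at 0.19, and EIF2AK2, the kinase PKR that halts translation, at 0.14. ADAR, ZNFX1 and EIF2AK2 were abundant in both groups, at 8.39 or above in all 10 libraries.

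IFIT proteins bind viral RNA ends and hold them back from translation. IFIT3 was 4.76, 6.27, 4.62, 6.49 and 6.66 without and 7.07, 8.29, 6.96, 11.13 and 6.98 with IL-1β. The groups did not overlap, yet donor 5 moved by only 0.32 whereas donors 1, 2 and 3 moved by 2.31, 2.03 and 2.34, and donor 4 by 4.64. IFIT3 had a log2 fold change of 2.33 ± 0.79, with an adjusted p of 0.0704 by limma, or 0.0167 with the line as a block. IFIT5 had a fold change of 0.19 and an adjusted p of 0.638. Its differences were −0.22, −0.04, 0.15, 1.32 and −0.27 in donors 1 to 5. Genes of the IFIT, OAS and MX families are similar in sequence and reads can be shared between copies, so the split of reads within each family is uncertain.

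None of the 4 OAS genes (0) was differentially expressed. OAS enzymes are activated by double-stranded RNA and make short oligoadenylates that switch on the nuclease RNase L. OAS2, the largest change of the family, was 9.83, 10.48, 9.39, 10.14 and 10.59 without and 9.95, 11.10, 10.11, 12.28 and 10.70 with IL-1β. The groups overlapped, and the libraries of donors 1 and 5 with IL-1β were within 0.13 of their own partners. Limma gave OAS2 a log2 fold change of 0.74 ± 0.41, with an adjusted p of 0.25. OAS1 and OAS3 had 0.72 and 0.54 and were higher in all 5 donors, as was OAS2. OASL, which lacks synthase activity and assists RIG-I, had −0.00 and was split, with donors 1 and 2 lower and donors 3, 4 and 5 higher.

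On the deposited scale RSAD2 had the largest fold change of all the effectors. It encodes viperin, which makes a chain-terminating nucleotide that stops viral polymerases. RSAD2 was 7.22, 7.81, 6.82, 5.70 and 6.42 without and 9.99, 9.73, 9.21, 11.12 and 9.27 with IL-1β. The groups were far apart, and donor 4 went from the lowest library of one group to the highest of the other. In normalized counts these ranges were 32.7 to 203 and 572 to 2204. The log2 fold change was 3.07 ± 0.43, with an adjusted p of 0.00127, and it stayed between 2.48 and 3.36 in the 15 leave-out fits, past the test in each. Its place as the largest depends on the scale. Over all alternative fits RSAD2 reached at most 3.37, where BST2 reached 5.13, XAF1 3.70 and LGALS3BP 3.54.

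BST2, or tetherin, holds budding virus particles at the cell surface. Its expression was 3.43, 4.42, 3.43, 4.77 and 4.87 without and 6.92, 7.30, 6.19, 9.20 and 5.37 with IL-1β. Donors 1 and 3 had no reads without IL-1β, and donor 5 changed little. BST2 had a log2 fold change of 2.81 ± 0.62, with an adjusted p of 0.0123. The call was lost without donor 1, at an adjusted p of 0.0693, and without donor 2, at 0.0603.

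The other direct effectors did not pass both criteria. MX1 and MX2, dynamin-like GTPases that trap viral nucleocapsids, had 0.50 ± 0.43 and 0.89 ± 0.50, with adjusted p-values of 0.486 and 0.262. Donor 4 had the largest differences, 1.89 for MX1 and 2.48 for MX2, where the other donors had −0.34 to 0.48 and 0.22 to 0.81. In the leave-out fits the fold changes went as low as 0.086 and 0.44. ISG20, an RNA exonuclease, had 0.48 and was higher in all 5 donors, with the largest difference in donor 5, at 0.77. CMPK2, a nucleotide kinase, had 0.11. SAMHD1, chosen here after its values were seen, degrades the nucleotides needed for DNA synthesis. It was 9.46, 9.12, 10.19, 9.54 and 9.35 without and 8.80, 8.78, 8.92, 8.13 and 9.24 with IL-1β. It was the only effector lower in all 5 donors, although the groups overlapped through donor 5, and its log2 fold change was −0.76 ± 0.23 with an adjusted p of 0.0478. The adjusted p of SAMHD1 was between 0.0365 and 0.142 when a library or donor was left out.

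ISG15 is a ubiquitin-like protein that is attached to other proteins through a chain of enzymes, and UBE2L6 is the conjugating enzyme of that chain. UBE2L6 was 8.33, 8.73, 8.12, 8.50 and 8.42 without and 11.02, 11.67, 10.15, 10.87 and 11.58 with IL-1β. It was the most even of the 8 genes, with differences of 2.69, 2.94, 2.03, 2.37 and 3.17 in donors 1 to 5, and donor 4 was not the highest. The log2 fold change was 2.64 ± 0.26 with an adjusted p of 0.000186, and it stayed called in all 15 leave-out fits.

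ISG15 itself was 8.37, 9.16, 7.67, 8.65 and 9.26 without and 9.50, 10.11, 9.44, 11.81 and 9.79 with IL-1β. The groups did not overlap, with a gap of 0.18 between donor 5 without and donor 3 with IL-1β. Its log2 fold change was 1.51 ± 0.45 and the adjusted p 0.044. ISG15 lost its call in 13 of 15 leave-out fits, the exceptions being the libraries of donors 3 and 4 with IL-1β, and the adjusted p ranged from 0.034 to 0.108. With the line as a block its adjusted p was 0.0183, and ISG15 was also called in the block fit without donor 4.

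Of the ligases and the protease of the ISG15 system, none (0 of 4) was differentially expressed. HERC6, a ligase, had 1.10 ± 0.57 with an adjusted p of 0.22. USP18, which removes ISG15 and dampens the type I receptor, had 0.72 and was higher in all 5 donors. TRIM25, a ligase that activates RIG-I, had 0.11. HERC5, the main ISG15 ligase in human cells, had −0.08, with differences of −0.76, −0.97, 0.02, 1.30 and 0.04 in donors 1 to 5.

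The 4 genes of the ADP-ribosylation group were abundant and changed little. PARP12, an ADP-ribosyltransferase that acts on viral translation, was 9.83, 10.11, 9.30, 10.01 and 10.15 without and 10.15, 10.46, 9.65, 11.13 and 10.31 with IL-1β. It was higher in all 5 donors, but the groups overlapped, and the log2 fold change was 0.46 ± 0.25 with an adjusted p of 0.255. PARP9, DTX3L and PARP14 had 0.38, 0.37 and 0.13. PARP9 and its partner DTX3L were lower with IL-1β in donors 1 and 5, by 0.25 and 0.87 for PARP9, and higher by 2.02 and 1.8 in donor 4.

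In the group of nuclear bodies and TRIM21, neither gene passed the test. TRIM21, an antibody receptor and ligase of the cytoplasm, was 9.26, 9.30, 9.35, 8.82 and 9.19 without and 9.28, 9.68, 9.28, 10.28 and 9.17 with IL-1β. The groups overlapped, and donors 2 and 4 had the larger differences, at 0.38 and 1.46. Its log2 fold change was 0.36 ± 0.21 with an adjusted p of 0.284. PML, which builds nuclear bodies that restrict viral genomes, had 0.13 with an adjusted p of 0.672.

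Of the 8 other interferon-induced genes, 3 were differentially expressed and all 8 had a fold change above 0. LGALS3BP, a secreted glycoprotein that binds galectin, was 5.81, 6.21, 4.55, 6.40 and 5.52 without and 7.93, 9.20, 7.61, 11.31 and 6.90 with IL-1β. All 5 donors were higher, by 1.38 in donor 5 to 4.91 in donor 4, and the groups did not overlap. LGALS3BP had a log2 fold change of 2.89 ± 0.72 with an adjusted p of 0.0208. The call was lost without the library of donor 2 with IL-1β, at 0.0545, and without donors 1 or 2, at 0.0704 and 0.0826.

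IFI44, a cytoplasmic protein that restrains replication of several RNA viruses, was 6.84, 8.01, 6.10, 7.64 and 7.90 without and 8.31, 9.36, 8.27, 11.46 and 8.92 with IL-1β. Every donor was higher by more than 1, and donor 4 was the highest with IL-1β by 2.10. The log2 fold change was 1.97 ± 0.59 and the adjusted p 0.0455. IFI44 lost its call in 12 of 15 leave-out fits, the exceptions being the libraries of donors 1, 3 and 4 with IL-1β, and the adjusted p ranged from 0.0344 to 0.11. With the line as a block its adjusted p was 0.00947, and IFI44 was also called in the block fit without donor 4.

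IFI35, a partner of NMI in innate signalling, was 8.11, 8.68, 7.80, 8.49 and 8.35 without and 9.30, 9.60, 8.72, 10.56 and 8.84 with IL-1β. The lowest library with IL-1β was only 0.037 above the highest without. IFI35 had a log2 fold change of 1.11 ± 0.32 with an adjusted p of 0.0384. IFI35 lost its call in 11 of the 15 leave-out fits. In the fit without the donor 4 library with IL-1β it was lost because the fold change, 0.82, was below 1, with an adjusted p of 0.0331. The same held without both libraries of donor 4, at a fold change of 0.87 and an adjusted p of 0.0469. IFI35 kept its call without donor 3, without the library of donor 2 that lacked IL-1β and without the libraries of donors 3 or 5 with IL-1β. With the line as a block its adjusted p was 0.00953, but the call was lost in the block fit without donor 4.

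Of the other 5 genes, XAF1, which promotes cell death, had 1.68 ± 0.63 with an adjusted p of 0.0996, or 0.0475 with the line as a block, and no reads in donors 1 and 3 without IL-1β. IFI6, a protein of the endoplasmic reticulum that restrains flaviviruses, was the most abundant of the group, at 10.67 to 11.85 without and 11.02 to 12.89 with IL-1β. Its 5 differences of 0.77, 0.83, 0.35, 1.28 and 0.84 gave a fold change of 0.81 with an adjusted p of 0.139, or 0.00427 with the block. Without the library of donor 3 with IL-1β, IFI6 was differentially expressed, at 1.11 and an adjusted p of 0.0185. RTP4, IFI44L and EPSTI1 had 0.86, 0.69 and 0.63.

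**Figure D2:**
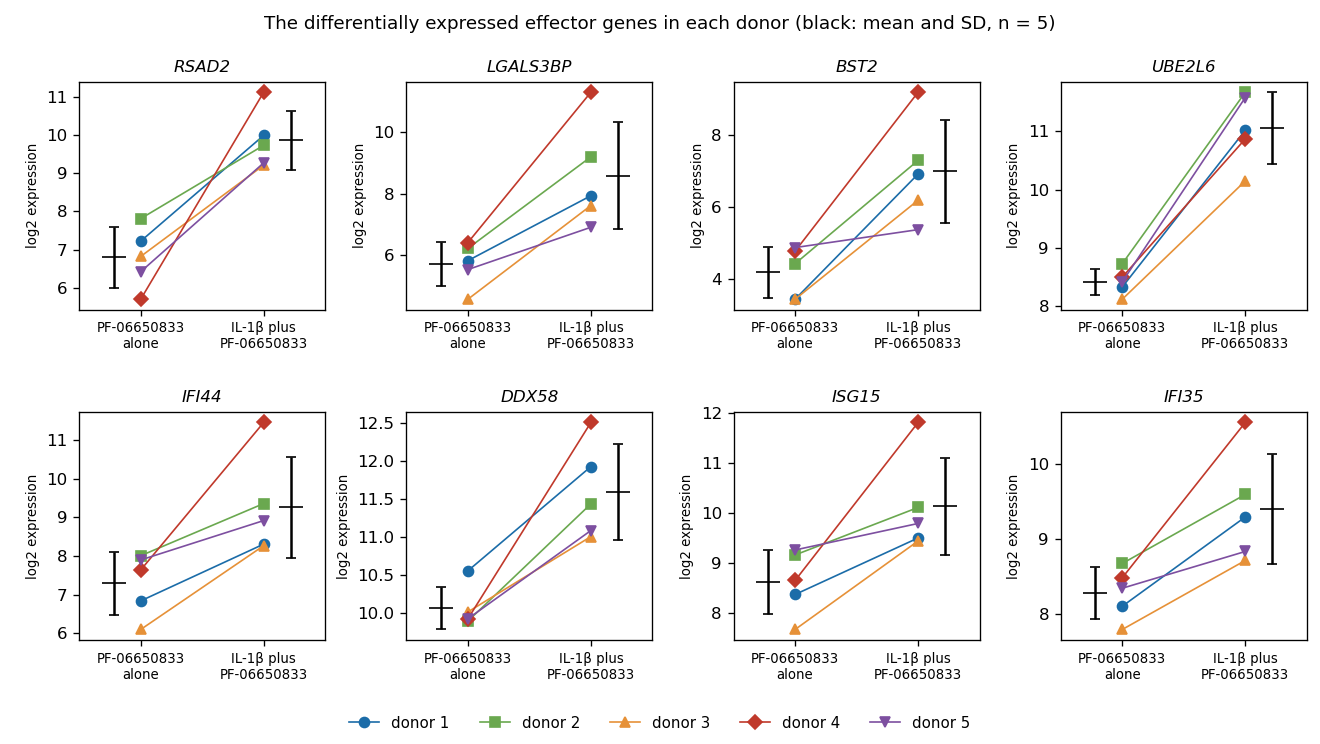
Deposited log2 expression (y axis, a separate range in each panel) of the 8 differentially expressed effectors, with a line joining both libraries of each donor and black bars for the mean and SD of 5 libraries. Donor 4 (red diamonds) is the highest library with IL-1β in 7 of the 8 panels, and in UBE2L6 the donors run close to parallel.

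The donors were compared within pairs, since each line was in both groups. The median difference over the 41 effectors was 0.23, 0.35, 0.62, 1.98 and 0.10 in donors 1 to 5, while the median over all genes was between −0.01 and 0 in each. Donor 4 thus had the strongest and donor 5 the weakest shift, a description with no test because each is 1 pair of libraries. A difference of at least 1 was seen in 12, 10, 14, 34 and 5 effectors of donors 1 to 5, where 5.48% to 7.01% of all genes had one. Donor 4 was above this share by the most and was not unusual over all genes, at 6.39%.

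Donor 4 had the largest difference of the 5 donors in 38 of the 41 effectors, against 24.2% of all tested genes. The exceptions were UBE2L6, ISG20 and SAMHD1, where donor 5 had the largest. The number of effectors higher with IL-1β was 27, 34, 38, 40 and 23 in donors 1 to 5. Without IL-1β the order was another: donor 2 was highest in 18 effectors and donor 3 lowest in 24. Shares over all genes were not taken for these counts. The median level of the effectors without IL-1β lay between 8.09 in donor 3 and 8.68 in donor 2, with donor 4 at 8.50. With IL-1β donor 4 reached 10.64 against 8.67 to 9.20 in the others.

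**Figure D3:**
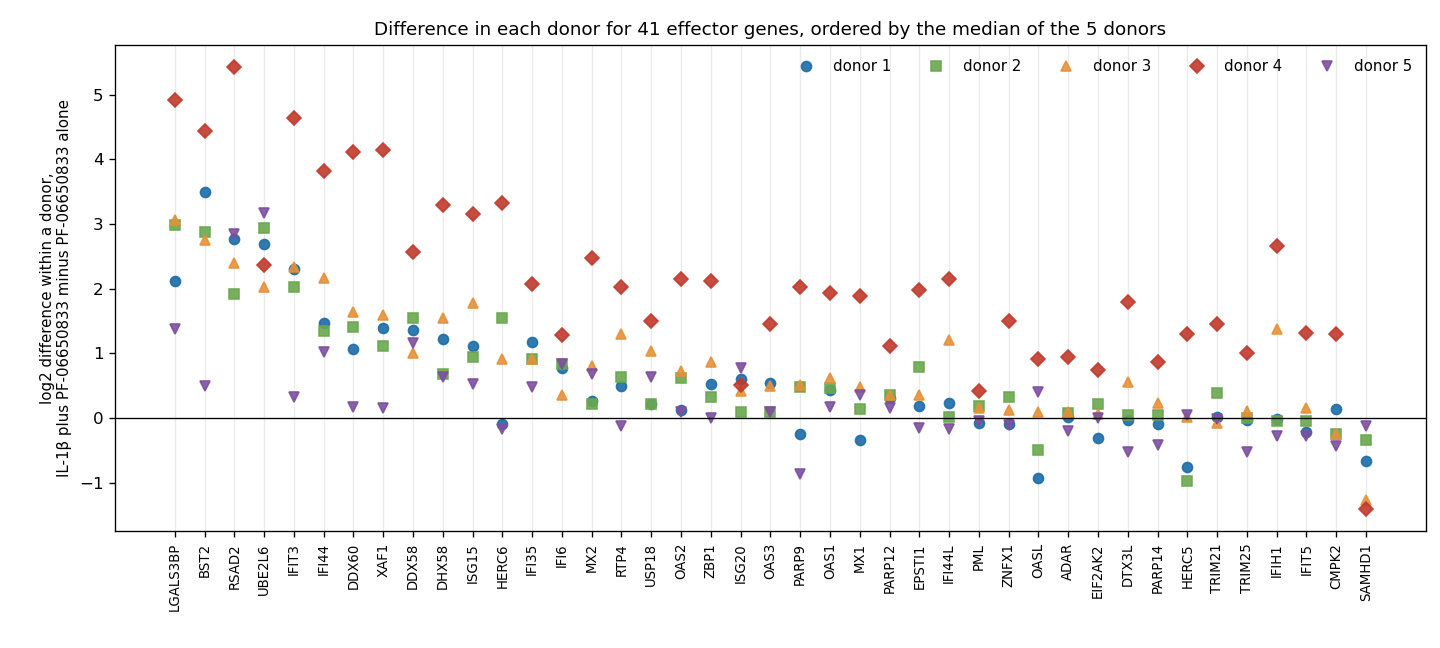
Difference between both libraries of a donor (y axis, log2, IL-1β plus PF-06650833 minus PF-06650833 alone) for each of the 41 effectors (x axis), ordered by the median of the 5 donors. Red diamonds for donor 4 are the highest point in 38 of 41 columns, and UBE2L6, ISG20 and SAMHD1 are the exceptions.

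Several effectors lie beside each other on a chromosome. By the order of protein-coding genes in a RefSeq annotation of another horse assembly, 7 pairs of members were direct neighbours, and for each pair the difference between the 2 genes' log2 values was compared between groups with a two-sided exact permutation test, adjusted over the 7 pairs. The smallest p this test can give with 5 against 5 libraries is 0.00794. This set of pairs was taken after single-gene values had been seen. Whether reads were shared between the genes of a pair was not tested.

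The neighbours RSAD2 and CMPK2, which are induced together in many virus infections, parted in these cells. RSAD2 gained 2.96 more on the log2 scale than CMPK2, in 5 of 5 donors, with an exact p of 0.00794 and an adjusted p of 0.0278. CMPK2 was 8.45, 8.74, 8.51, 7.91 and 8.64 without and 8.59, 8.50, 8.27, 9.21 and 8.21 with IL-1β, so that donors 2, 3 and 5 were lower and donors 1 and 4 higher. IFI44 gained 1.28 more than IFI44L in 5 of 5 donors, with an exact p of 0.00794 and an adjusted p of 0.0278. HERC6 gained 1.18 more than HERC5 in 4 of 5 donors, with an exact p of 0.0159 and an adjusted p of 0.037. Without donor 4 these 3 differences were 2.67, 1.18 and 0.97, with exact p-values of 0.0286, 0.0286 and 0.0571, where 0.0286 is the smallest that 4 against 4 libraries can give, and none passed once adjusted over the 7 pairs.

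The other 4 pairs did not pass the test. MX2 had 0.39 more than MX1, in 5 of 5 donors, and the OAS genes stood within 0.21 of each other, with adjusted p-values between 0.278 and 0.389 in the exact test. PARP9 and DTX3L, which share a promoter region and form a complex, had fold changes that differed by 0.01, with PARP9 ahead in 2 of 5 donors. This test compares the groups without the pairing by line. An exact test over the within-donor differences, chosen after seeing the data, which with 5 pairs cannot go below 0.0625, gave that value for RSAD2 and CMPK2, IFI44 and IFI44L, and MX2 and MX1, and 0.125 for HERC6 and HERC5. No pair can therefore pass 0.05 in it.

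**Figure D4:**
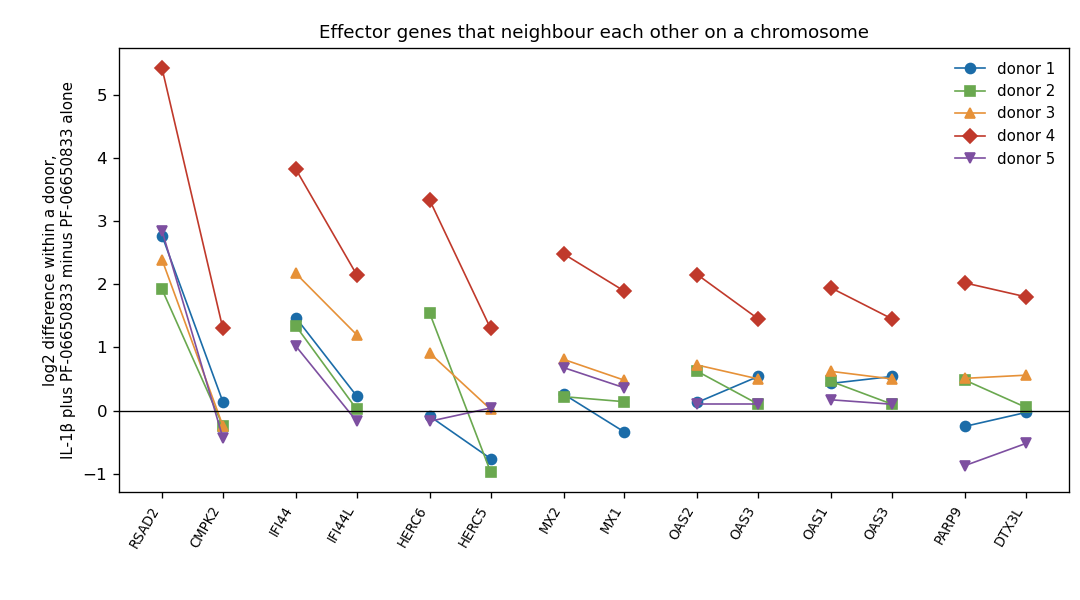
Difference within each donor (y axis, log2, IL-1β plus PF-06650833 minus PF-06650833 alone) for the 7 pairs of neighbouring effectors (x axis), with a line joining both genes of a pair in the same donor. The lines fall steeply from RSAD2 to CMPK2 in all 5 donors and run nearly level from PARP9 to DTX3L.

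The genes upstream of the effectors were read from lists grouped by function. Of 9 interferon ligands, 5 were in the table. IFNB1, IFNA1 and IFNK were at the lowest value in all 10 libraries, which is 0 normalized counts. IFNE, an epithelial type I interferon, was between 3.43 and 4.21 in both groups, with a fold change of 0.16 and an adjusted p of 0.651. IFNG, type II interferon, had no reads in any library without IL-1β and was 4.10, 4.22, 3.43, 4.31 and 3.89 in donors 1 to 5 with it. That is at most 4.11 normalized counts per library, and the gene was too low to be tested. Transcripts of these interferons were at or near the limit of detection at this depth on the day of harvest, and earlier days were not measured.

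None of the 6 interferon receptor genes (0) was differentially expressed, but 3 passed the adjusted p without the minimum fold change. All 3 were higher, as were 7.57% of all tested genes. IFNAR2, a chain of the type I receptor, had 0.85 with an adjusted p of 0.00883. IFNGR2 and IFNGR1, the chains of the type II receptor, had 0.84 and 0.34, with adjusted p-values of 0.00465 and 0.0303. In the leave-out fits the adjusted p rose to 0.058 for IFNAR2, 0.0395 for IFNGR2 and 0.152 for IFNGR1. In all 3 genes every library with IL-1β was above every library without, as in 6.29% of all tested genes. IFNAR1 had 0.21, with an adjusted p of 0.536.

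Of 15 JAK, STAT and IRF transducers, 2 were differentially expressed. IRF8, an interferon regulatory factor best known from myeloid cells, rose from between 3.43 and 5.59 to between 5.60 and 7.19, a fold change of 1.99 with an adjusted p of 0.00954. IRF1, which NF-κB and interferon both induce, was 9.30, 9.79, 10.14, 9.80 and 9.15 without and 11.30, 11.73, 11.13, 12.79 and 9.93 with IL-1β. All 5 donors were higher, though donor 5 with IL-1β stayed within the range of the other group. The fold change of IRF1 was 1.74 ± 0.42 with an adjusted p of 0.0189, which became 0.0908 at most when a donor was left out, the calls lost being those without donor 1 or donor 2.

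STAT2 and IRF9, which act together downstream of the type I receptor, had 0.72 and 0.82, with adjusted p-values of 0.0461 and 0.0287 and no overlap between groups. In the leave-out fits the adjusted p rose to 0.156 for STAT2 and 0.0975 for IRF9. Donor 4 had the largest difference in both, at 1.67 for STAT2 and 1.61 for IRF9. IRF7, which amplifies type I interferon production, had 1.55 with an adjusted p of 0.052, or 0.0205 with the line as a block. STAT3 had −0.49 with an adjusted p of 0.0134, or 0.0827 at most in the leave-out fits, and was lower in 5 of 5 donors. JAK1, TYK2 and IRF3 were at 0.02, −0.02 and 0.12.

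Of 13 adaptors and kinases of nucleic acid sensing, IKBKE and TICAM1 were differentially expressed. IKBKE, a kinase of IRF3 that NF-κB also induces, had 1.31 ± 0.13 with an adjusted p of 0.00019, and TICAM1, the adaptor of TLR3, had a 95% interval from 0.95 to 1.53 with an adjusted p of 0.000308. Both differed little between donors: IKBKE gained 1.02 to 1.49 and TICAM1 0.76 to 1.65, and in neither did a left-out library or donor end the call. With the line as a block NLRC5, a regulator of antigen presentation genes, was also called, at 1.71 with an adjusted p of 0.048 against 0.054 without it. MAVS and MYD88 had −0.12 and −0.22, with adjusted p-values of 0.427 and 0.131.

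Of 35 further interferon-inducible genes, 10 were differentially expressed, all higher. Among all tested genes 3.11% rose, which is the background for the count of each pathway list. Over all pathway lists together 14 genes were differentially expressed, or 13 without donor 4. The 4 with the largest fold change were CXCL9 and CXCL10, chemokines that attract T cells, GBP5, a guanylate-binding protein, and CD274, the checkpoint ligand PD-L1. CXCL9 was 3.43, 4.70, 3.89, 4.02 and 3.43 without and 10.79, 10.84, 9.0, 13.48 and 10.27 with IL-1β, a fold change of 6.98 with an adjusted p of 0.000166. CXCL10, GBP5 and CD274 had 5.70, 4.16 and 2.85, with adjusted p-values of 0.00107, 0.00983 and 0.0105. CD274 lost its call without donor 1, at 0.0564. IFI27, an interferon-induced mitochondrial protein, had 1.23 with an adjusted p of 0.247, or 0.0281 with the line as a block. All 3 of CXCL9, CXCL10 and GBP5 were thus beyond any of the 41 effectors, and in each of the 4 genes donor 4 had the largest difference.

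**Figure D5:**
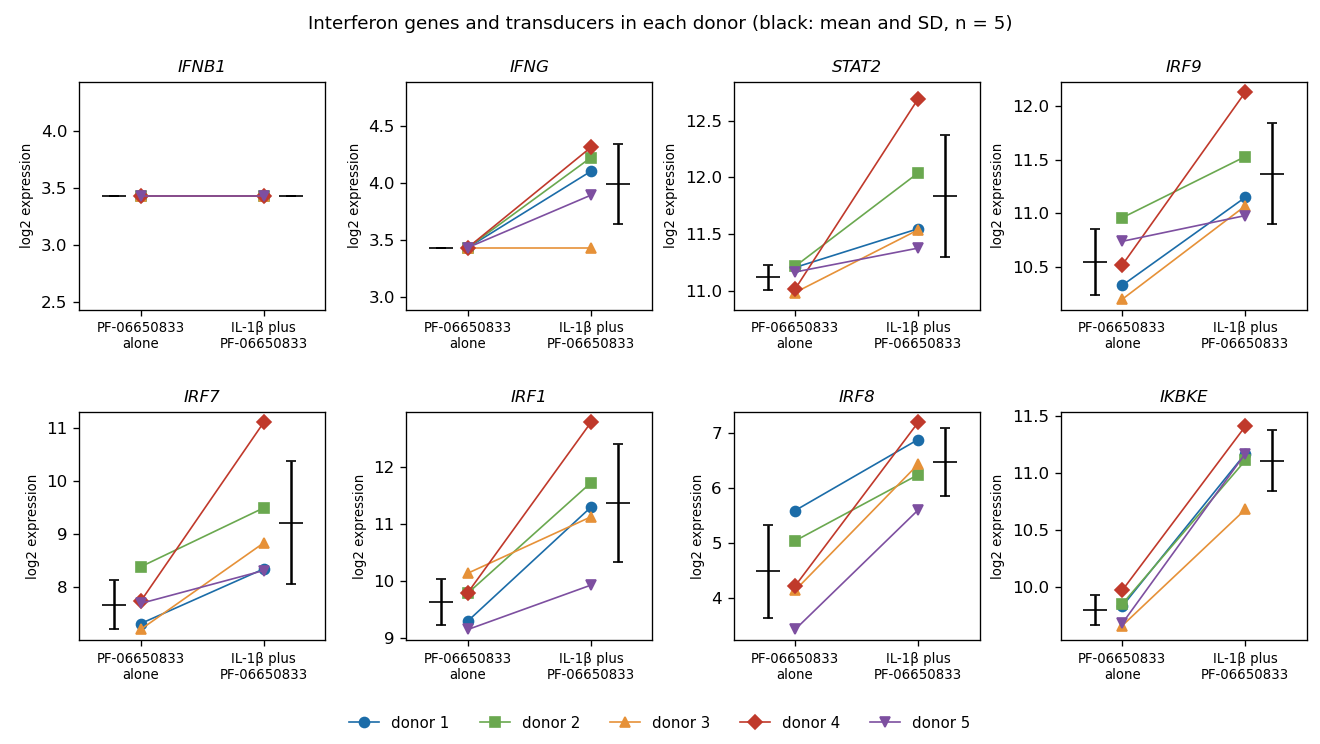
Deposited log2 expression (y axis, a separate range in each panel) of IFNB1, IFNG, STAT2, IRF9, IRF7, IRF1, IRF8 and IKBKE in each donor, with a line joining both libraries of a donor and black bars for the mean and SD of 5 libraries. IFNB1 is at 3.43 in all 10 libraries, donor 4 is highest with IL-1β in the other 7 panels, and the lines of IKBKE are close to parallel.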

How the data were processed

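Polyadenylated RNA from 10 cultures, 5 per group, was sequenced by the authors to 31200000 to 41400000 read pairs of 150 bp per sample, and checked with FastQC 0.11.9. Reads were quantified with Salmon 1.8 against the EquCab3.0 transcriptome, with GC-bias correction, and tested with DESeq2 1.36. The authors deposited log2 values for 29196 genes. The transformation is not named in the sources used here; it was recognised from the shared lowest value of 3.433 as variance stabilization. Inverting it gave normalized counts. All 10 columns were used, and libraries were grouped by title.

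The 17992 genes with a value above the lowest in 5 or more libraries were fitted with limma 3.58.1 (R 4.3.3) with a mean-variance trend and no donor term, as the authors name none. All adjusted p-values are limma with Benjamini-Hochberg adjustment unless an exact test is named. The authors, with DESeq2 and the same thresholds, report a larger number of differentially expressed genes for this comparison. Lines pair the libraries: deviations from group means of the same line correlated at 0.367 to 0.506, against 0.0869 at most for other lines. Subtracting the group means by itself lowers the values for other lines, so they are not an independent baseline. Confidence intervals are at 95%.

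The members, the pathway lists and the tests were chosen with earlier results of these data known. Values in every library are given, in each role group, for differentially expressed members (at most 4) and otherwise for the member with the largest fold change. Of each pathway list, differentially expressed genes were named, at most the 4 largest, and all ligands. One gene of the transducer list is not reported here. Others named were chosen after their values were seen. Alternatives were the line as a block, other scales, pseudocounts of 1 and 0.5, filters, normalizations, variance models, thresholds and leaving out libraries or donors. A RefSeq table of another assembly held 39 of the 41 members and was used for gene order only. Promoter and protein sequences were not used here.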

Additional observations from a re-analysis of the deposited data

Results flagged for a closer look

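In 112 groups of 5 libraries, 1 library each for 6 genes and conditions lay far from the other 4 by Dixon's test at the 95% level, where chance gives about 5.6, or 1 in 20 groups. Of these, 3 were the library of donor 4 with IL-1β: IFIH1 at 8.51, ISG15 at 11.81 and HERC5 at 6.93, each the highest of its group. Without IL-1β, DDX58 stood high in donor 1 at 10.56, IFIH1 low in donor 3 at 4.41 and MOV10, an RNA helicase of the list of further inducible genes, high in donor 2 at 10.22. The number found is close to the number that chance gives.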

How the results depend on the processing

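The number of effectors differentially expressed was 8 and lay between 6 and 9 under the other scales, filters, normalizations and variance models, and it was 12 in both replicate-block fits over all donors and 3 at an adjusted p below 0.01. It was 3 to 9 when a library or a donor was left out. At an adjusted p below 0.05 alone there were 9, and 14 with the replicate block, on the deposited scale, on log2(normalized count + 1) and without donor 4, against 3 at an adjusted p below 0.01 and 3 to 9 with a library or donor left out. For these counts, numbers over all genes were taken only in the main fit and the block fit on the deposited scale. Over all tested genes 1202 were differentially expressed, against 719 at an adjusted p below 0.01, 2782 with no minimum fold change, 1809 with the replicate block on log2(normalized count + 1), and 762 to 1422 with a library or donor left out. Of the pathway genes 14 were differentially expressed, against 8 and 26 under those 2 thresholds and 8 to 15 with a library or donor left out.

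Of the 41 effectors, 21 kept direction and call under every alternative with a minimum fold change, 5 of the 8 called lost the call in at least 1, 5 gained it in at least 1, and 10 changed direction in at least 1. With no minimum fold change SAMHD1 was also called. OASL became 0.028 under centring on the median. With a library or donor left out, fold changes ranged from −0.36 to 0.23 for OASL, −0.45 to 0.15 for HERC5, −0.19 to 0.24 for CMPK2, −0.042 to 0.25 for EIF2AK2, −0.094 to 0.31 for IFIT5, −0.11 to 0.27 for TRIM25, −0.067 to 0.69 for PARP9, −0.0079 to 0.59 for DTX3L, −0.10 to 0.26 for PARP14 and −0.00031 to 0.24 for PML. With the replicate block and without donor 4, an alternative chosen after seeing the data, EIF2AK2 was −0.0062, IFIT5 −0.094, CMPK2 −0.19, TRIM25 −0.11, PARP9 −0.032 and PARP14 −0.059. None of these genes passed the test in any alternative. The difference between PARP9 and DTX3L became −0.044 without donor 4. The median fold change of the effectors was 0.36 to 0.86 over the alternatives, and 20 to 25 were higher in every donor used. Leaving out a donor can only keep or raise the latter count, and the matching share of all genes was not taken.

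Leaving out a donor leaves 4 pairs, so fewer samples enter those fits; why each call was lost was not tested. The donor block changed no call of an effector or pathway gene other than those given beside the genes. Low genes such as BST2, XAF1, ZBP1 and IFNG are limited by reads. The search for promoter motifs was not run.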
